A study of Homo sapiens with 5 samples.

Results

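The mRNAs of the mitochondrial ribosomal proteins were followed through 2 RNA immunoprecipitations in MCF10A, a non-tumorigenic human breast epithelial cell line. Genes were chosen by symbol: every protein-coding gene named MRPL or MRPS followed by a number, with an optional letter A to C, and no pseudogene. This gave 76 genes of the 56632 in the tables, 48 with large subunit (MRPL) names and 28 with small subunit (MRPS) names. All 76 were among the 11764 analysed genes, those with a mean of at least 1 FPKM (fragments scaled by transcript length and library size) over the 5 libraries. In RNA immunoprecipitation (RIP), a protein is captured from a cell lysate with an antibody and the RNA that comes with it is sequenced beside the input. A stable MCF10A line expressing FLAG-CBFB gave 1 input and 1 RIP with a FLAG antibody. Parental MCF10A cells gave 1 input and 2 RIP repeats with an hnRNPK antibody. The labels do not say whether endogenous CBFB was still present in the FLAG-CBFB cells, or whether the hnRNPK repeats came from separate cultures, so p-values measure only the spread between these samples, which may be technical. No mock immunoprecipitation was analysed here. The question was which mRNAs CBFB and hnRNPK bind.

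Mitochondria keep their own ribosome, which makes the few respiratory chain proteins encoded by mitochondrial DNA. Its ribosomal RNAs come from the mitochondrial genome, whereas all of its proteins are encoded in the nucleus, translated in the cytosol and imported. Many of these proteins descend from bacterial ribosomal proteins, and others are found only in mitochondria. CBFB is the partner of the RUNX transcription factors and binds no DNA alone, while hnRNPK binds RNA directly and favours runs of C.

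C runs in the coding sequences are shown for the members at both ends of the hnRNPK results. Each line is the 30-base stretch of the coding sequence that holds the most C in runs of 3 or more, taken from GENCODE 29 transcripts, 5′ to 3′, with those runs in capitals. The first 3 are the members highest in the hnRNPK RIPs on the log2(FPKM + 1) scale defined below, and the last 3 the lowest. On counts the order differed: MRPL20 and MRPL21 lay above MRPL49 and MRPL30, and MRPS31 was lowest. MRPL18, not shown, lay close to MRPL47 (-2.54 and -2.56).
MRPL4: acttCCCCCgaCCCCtaCCCCacgctaCCC
MRPL49: ggctggcagcctCCCagagaCCCCCCaCCC
MRPL30: acataCCCCtcaagttcacaagaatatCCC
MRPL47: CCCttctttgtaggagagtttcatccgCCC
MRPL27: agcgccatttccgctggcaCCCaggtgCCC
MRPL22: ttattttgtgaagttggtggaagggCCCCC

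The MRPL4 stretch held 16 C in runs and the MRPL49 stretch 12, against 7 in MRPL30, 6 in MRPL47 and MRPL27 and 5 in MRPL22. A stretch as rich as that of MRPL4 was found in 5.64% of 10536 analysed protein-coding genes, and one as rich as that of MRPL49 in 23.7%. The median densest stretch held 9 C in runs over all genes and 7.5 over the 76 members. The coding sequence of MRPL4 had 29 runs of 3 or more C in 933 bases, that of MRPL49 14 in 498 and that of MRPL30 4 in 393. At the low end, MRPL47 had 9 in 690 bases, MRPL27 5 in 279 and MRPL22 2 in 696, so the ends overlapped.

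In the FLAG-CBFB RIP, the members lay near the middle of all genes and MRPL4 stood apart above them. In the hnRNPK RIPs, 75 of 76 members lay below the median of all genes, and MRPL4 was again the exception. Enrichment was log2(FPKM + 1) of a RIP minus that of its own input, centred on the mean of the analysed genes. That mean was -1.34 for CBFB and -2.61 and -2.68 for the hnRNPK repeats before centring. Transcripts of the 37 mitochondrial genes made up 4.27 and 11.2% of the input counts, 62.2% of those with FLAG-CBFB and 84.5 and 86.6% of those with hnRNPK, which lowers the FPKM of every nuclear gene in the RIPs. Both inputs carried epithelial mRNAs, such as KRT5 (1974 and 1640 FPKM), and the blood cell marker PTPRC was at or near 0.

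The median member had 53.4 FPKM in the FLAG-CBFB cell input and 18.4 in its RIP. In parental cells it had 79.1 FPKM before and 2.30 and 2.23 after hnRNPK immunoprecipitation. Over all analysed genes the medians were 14.4 and 4.26 FPKM for the CBFB pair and 14.2, 1.10 and 1.01 for the hnRNPK set. The members were thus well expressed genes in both inputs, and in the RIPs they were still above the typical gene. No member was at 0 in any library, and the lowest expected count was 43.

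**Figure D1:**
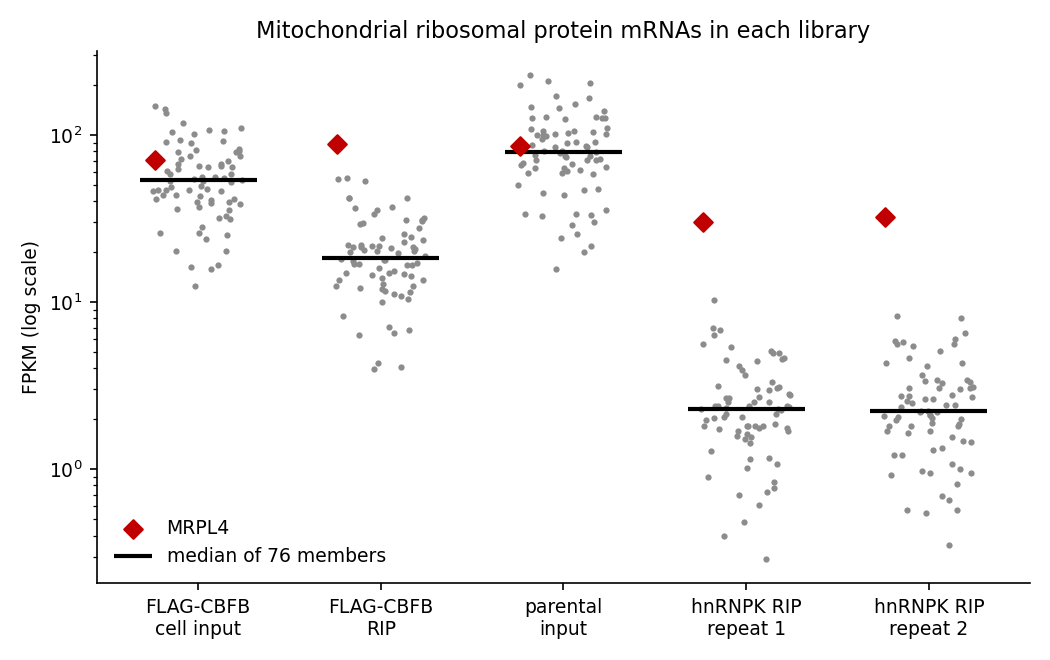
FPKM (log scale) of the 76 mRNAs in the 5 libraries, with 1 point per gene, MRPL4 as a red diamond and the median as a bar. MRPL4 is inside the cloud in both inputs, at 70.6 and 85.9 FPKM, and above all the other members in the 3 RIPs.

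The summed share of counts needs no centring. Of all counts in the input of FLAG-CBFB cells, 0.423% belonged to the members, with a 95% Wilson interval of 0.422 to 0.424%, and in their RIP 0.152% did (0.152 to 0.153%). For parental cells the share was 0.562% before immunoprecipitation (0.560 to 0.564%), then 0.0233% (0.0230 to 0.0236%) with hnRNPK repeat 1 and 0.0232% (0.0229 to 0.0235%) with repeat 2. The intervals cover counting error only. When the 37 mitochondrial genes were left out of the total, the CBFB pair moved from 0.442 to 0.403%, a ratio of input to RIP of 1.10. The parental input stood at 0.633% and the hnRNPK RIPs at 0.150 and 0.173%, ratios of 4.21 and 3.66. Without MRPL4 these ratios were 1.15, 4.84 and 4.27. MRPL4 alone supplied 1.87 and 1.75% of the members' input counts, 6.57% of those with FLAG-CBFB, and 14.5 and 15.6% of those with hnRNPK.

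With FLAG-CBFB, the members' median enrichment was -0.14, against -0.19 over all analysed genes, and 69 of 76 lay between the quartiles of all genes. None passed 4-fold, a centred enrichment above 2, where 4.37% of analysed genes did. None was below -2 either, where 0.0935% of analysed genes were. There was 1 library per arm, so these values have no test. The other input changed their place: against the parental input, the median was -0.64 and all but 8 of the members fell below the median of all genes.

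MRPL4, a large subunit protein with a bacterial homologue, was the highest member in the FLAG-CBFB RIP. Its mRNA had 70.6 FPKM in the input and 88.4 in the RIP, the only member whose FPKM was higher in the RIP. Its centred enrichment was 1.66, under the 4-fold threshold, and the next highest member had 0.28. That next member was MRPL47, with 46.6 FPKM in the input and 21.9 in the RIP. MRPL41 (25.1 and 11.5 FPKM) had the same enrichment of 0.28 to 2 decimals. MRPL20 had 91.1 and 42.0 FPKM, an enrichment of 0.24, and MRPL51 had 117.2 and 53.2 FPKM, an enrichment of 0.22. Without replicates, these 4 values cannot be ordered.

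At the low end with FLAG-CBFB was MRPL19, at 49.6 FPKM in the input and 12.8 in the RIP, an enrichment of -0.54. MRPS27, a small subunit protein of the pentatricopeptide repeat kind, had 81.2 and 21.7 FPKM and an enrichment of -0.52. MRPS30, which sits in the large subunit despite its name, had 45.9 and 12.5 FPKM (-0.45). MRPL30 had 16.2 and 3.97 FPKM (-0.45), and MRPL50 had 16.6 and 4.11 FPKM (-0.45). Apart from MRPL4, the members thus spanned a narrow band, with 24.6 to 47.0% of the input FPKM left in the RIP.

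With hnRNPK, the members' median enrichment was -1.94, against -0.11 over all analysed genes. The repeats gave -1.99 and -1.94, and the SD between repeats had a median of 0.12 over members. A mean enrichment under -2 was seen for 36 of 76 members (47.4%), where 6.24% of analysed genes had it. The scale limits this comparison, because 1 is added to each FPKM. A gene at the all-gene median of 14.2 FPKM in the parental input could not reach -2 even at 0 FPKM in the RIPs. The members' median there was 79.1 FPKM, so the 6.24% is no share among genes able to reach -2. Such values were common among well expressed and short mRNAs: 25.8% of genes with a mean of at least 20 FPKM were under -2, and so were 42.0% of protein-coding genes of at least 20 FPKM and at most 1500 nt. All 36 such members were among the 65 members of at most 1500 nt. None of the members passed above 2, where 8.2% of analysed genes did. The count under -2 depends on how the libraries are scaled: it was 0 when the RIPs were scaled to the inputs before the pseudocount of 1 was added, where the members' median was -1.07 and that of all genes -0.02. At the threshold of -2, MRPL9 (-2.03) and MRPL28 (-2.07) lay just inside, and MRPL53 (-1.97) and MRPL19 (-1.94) just outside.

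**Figure D2:**
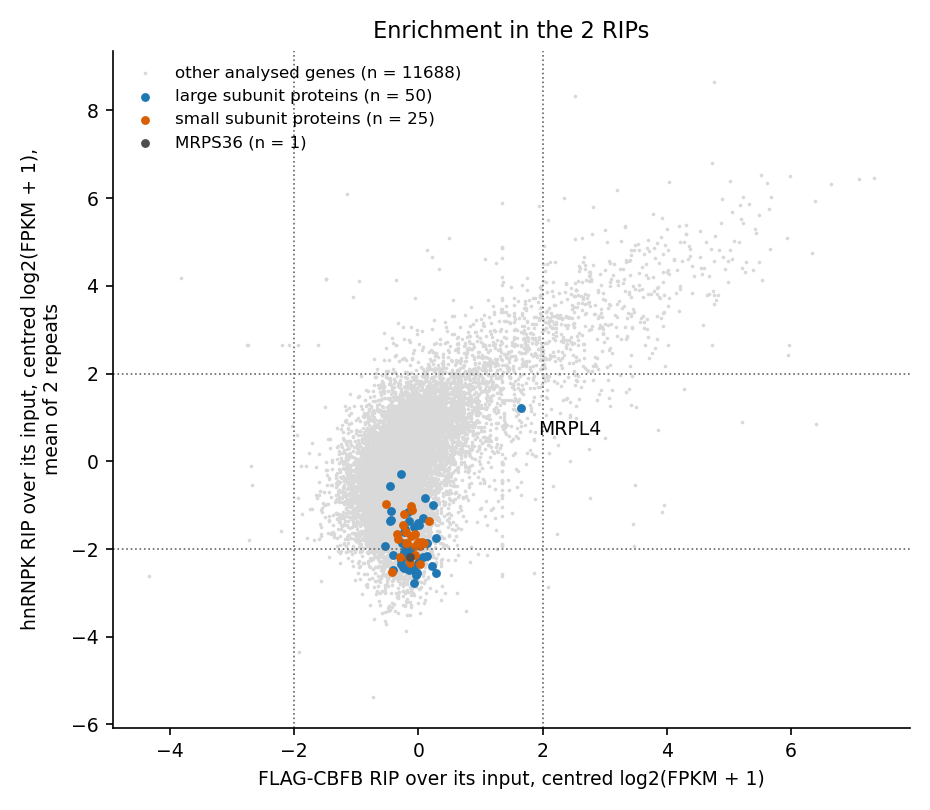
Centred log2 enrichment in the FLAG-CBFB RIP (x) against the mean of 2 hnRNPK RIP repeats (y) for 11688 other genes (grey) and the members by subunit (colours), with dotted lines at 2 and -2. The members form a tight group at a median of -0.14 on x and -1.94 on y, and MRPL4 stands alone at 1.66 and 1.21.

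The expected counts of the hnRNPK repeats were tested against the parental input with edgeR's quasi-likelihood test over 16639 genes, at a Benjamini-Hochberg adjusted p under 0.05. Of the 76 members, 59 (77.6%) were lower in the RIP, where 15.8% of all tested genes were. MRPL4 alone (1.32%) was higher, where 21.9% of all tested genes were. The members' median log2 fold change was -1.28, against -0.12 over all tested genes, and the standard errors of the members ran from 0.34 to 0.42. The 59 lower members had log2 fold changes from -2.49 to -0.85. The other 16 ran from -0.82 to 0.58, 5 of them above 0. The test has a single input library, so its spread comes from the RIP repeats and from sharing across genes.

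**Figure D3:**
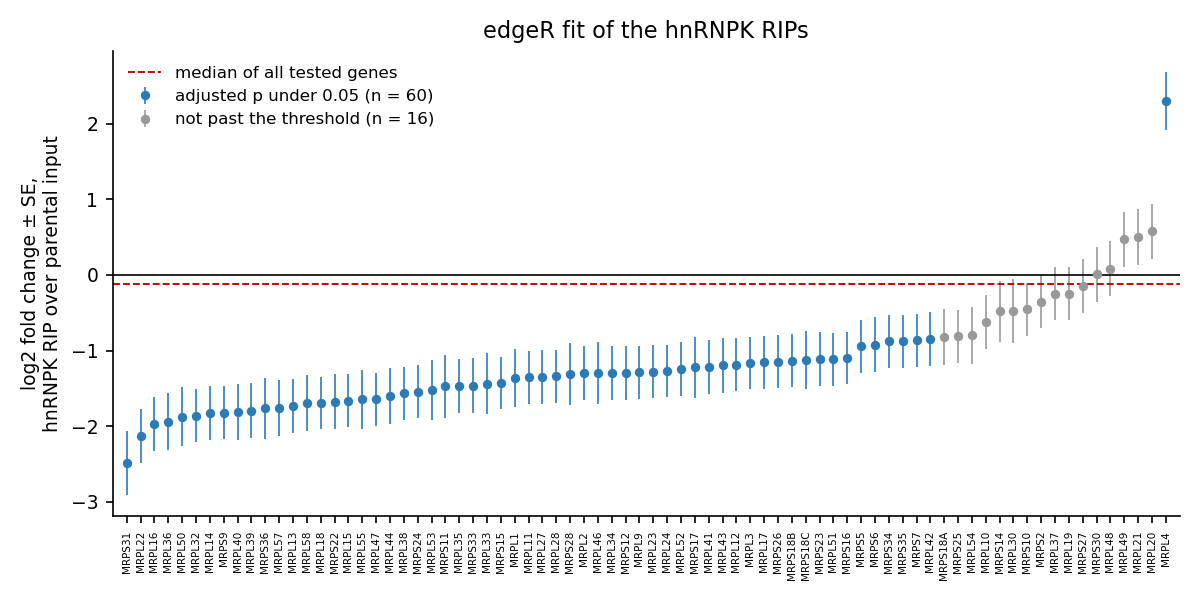
log2 fold change of the hnRNPK RIPs over the parental input with its standard error for each of the 76 mRNAs, sorted, from edgeR. Blue points passed an adjusted p of 0.05, and all but MRPL4, at 2.30, are below 0, while the dashed line marks the median of all tested genes at -0.12.

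The member with the lowest hnRNPK enrichment on the log2(FPKM + 1) scale was MRPL22, a large subunit protein with a bacterial homologue. Its mRNA had 125.3 FPKM before and 1.82 and 2.12 after hnRNPK immunoprecipitation. Enrichment was -2.77 ± 0.15 (SD, n = 2), and the edgeR log2 fold change was -2.13 ± 0.36 (SE), with an adjusted p of 2.74e-08. MRPL27, whose bacterial counterpart reaches into the peptidyl transferase centre, had 125.7 FPKM against 1.76 and 3.05. It fell by 1.35 on the log2 scale (SE 0.35, adjusted p from edgeR = 6.93e-04). The mean transcript length of MRPL27 was over 1.5 times that in the input in repeat 1 only, which lowers its FPKM there. MRPL47 had 108.9 FPKM against 2.01 and 1.96, and fell by 1.65 (SE 0.35, adjusted p from edgeR = 2.06e-05). MRPL47 thus stood next to MRPL4 with FLAG-CBFB and among the 3 lowest with hnRNPK, but each place rests on its own input: with the inputs exchanged, its enrichments were -0.89 and -1.38.

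MRPL18 had 138.5 FPKM in the input against 2.38 and 3.34 with hnRNPK, an enrichment of -2.54 ± 0.30 (SD, n = 2). MRPS16, a small subunit protein, had 128.3 FPKM against 2.67 and 2.50, an enrichment of -2.53 in both repeats. These both passed the edgeR test as lower, MRPS16 at a log2 fold change of -1.10, against the members' median of -1.28. The mean transcript length of MRPS16 was over 1.5 times that in the input in both repeats, and FPKM divides by that length. MRPL52 followed with 171.1 FPKM against 4.15 and 3.65, and MRPL36, one of the smallest proteins of the large subunit, with 103.8 against 2.14 and 1.87. MRPL32, which is cut by a mitochondrial protease before it joins the ribosome, had 101.1 FPKM against 1.70 and 2.23. In MRPL14 the values were 103.0 FPKM against 1.55 and 2.64, and in MRPL3 they were 198.2 against 5.59 and 4.29. All 5 passed the edgeR test as lower, at log2 fold changes from -1.94 (MRPL36) to -1.16 (MRPL3).

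On counts, the lowest member was MRPS31, a small subunit protein found only in mitochondria, named here after its value was seen. Its expected counts were 2445 before and 43 and 44 after hnRNPK immunoprecipitation. Its edgeR log2 fold change was -2.49. The FPKM scale gave it an enrichment of -1.98 and -1.75, since 32.8 FPKM in the input leaves less room to fall above a pseudocount of 1. As a plain share of the input FPKM, MRPS31 kept 1.22 and 1.74% in the repeats and MRPL22 1.45 and 1.69%. MRPL50 had 3021 counts against 75 and 88, a log2 fold change of -1.87 (adjusted p from edgeR = 1.10e-05) and FPKM values of 20.0, 0.29 and 0.35.

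With hnRNPK, MRPL4 had 85.9 FPKM before and 30.2 and 32.1 after immunoprecipitation. Its FPKM was therefore lower in the RIPs, at 35.2 and 37.4% of the input, but far less so than that of the other members, which kept 1.22 to 11.7%. Its centred enrichment was 1.13 and 1.29 in the repeats. In expected counts it had 6858 in the input and 3490 and 3272 in the RIPs. The edgeR log2 fold change was 2.30 ± 0.38 (SE), with an adjusted p of 2.12e-08. MRPL4 lay above the median of all genes in both RIPs under every scaling tried except 1, in which no gene was filtered out and its hnRNPK value lay 1.43 below that median. Exons of MRPL4 overlap 2 antisense genes in GENCODE 29. Neither had more than 27.6 expected counts in a library, and whether the counting used strand is not given in the sources used here.

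On the log2(FPKM + 1) scale, 4 of the rest were nearest to the middle of all genes, and none of them passed the edgeR test. MRPL20, at -0.99 ± 0.15 (SD, n = 2), was next and overlapped MRPS27. On counts, MRPL20 (log2 fold change 0.58) and MRPL21 (0.50, named after its value was seen) were higher than these 4, and neither passed. The 4 had 0.47 (MRPL49), 0.09 (MRPL48), -0.15 (MRPS27) and -0.48 (MRPL30). MRPL49 had 29.1 FPKM against 2.51 and 3.40 in the RIPs, an enrichment of -0.29 ± 0.28 (SD, n = 2). Its exons overlap 2 genes on the other strand. SYVN1 had 3175 expected counts before and 16393 and 8882 after immunoprecipitation, and FAU had 25148 before and 724 and 791 after. Whether MRPL49 shared reads with either was not tested. MRPL30 had 15.9 FPKM against 0.70 and 0.97, an enrichment of -0.56 ± 0.20 (SD, n = 2), and shares exons with AC079447.1 on its own strand. MRPL48 had 71.5 FPKM against 4.53 and 6.54, an enrichment of -0.85 ± 0.37 (SD, n = 2). MRPS27 had 58.7 FPKM against 3.67 and 4.13, an enrichment of -0.97 ± 0.15 (SD, n = 2). The SDs of MRPL49, MRPL30 and MRPL48 overlap, as do those of MRPL48 and MRPS27, so their order is not settled by 2 repeats.

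The members highest with FLAG-CBFB did not stand together with hnRNPK. MRPL51 had 209.8 FPKM against 5.41 and 5.49 in the RIPs, and fell by 1.11 (SE 0.35, adjusted p from edgeR = 0.00524). MRPL41 had 58.2 against 1.86 and 1.80 FPKM, and fell by 1.21 (SE 0.36, adjusted p from edgeR = 0.00283). MRPL20 had 125.6 against 10.2 and 8.26 FPKM, with a log2 fold change of 0.58 ± 0.37 (SE) that did not pass the test (adjusted p from edgeR = 0.211). Of the members lowest with FLAG-CBFB, MRPL19 (73.9 against 2.38 and 1.88 FPKM) and MRPS30 (50.2 against 2.30 and 2.08 FPKM) did not pass, at log2 fold changes of -0.25 and 0.01. For both, the mean transcript length in the hnRNPK RIPs was over 1.5 times that in the input, and FPKM divides by that length while counts do not.

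Across the 76 members, CBFB and hnRNPK enrichment had a Pearson r of 0.35 and a Spearman rho of -0.05. Without MRPL4, r was -0.12 and rho -0.09 over 75 members, so the positive r rested on MRPL4. These are correlations across genes of the same libraries, which share depth and scaling, and genes are not independent replicates. Both hnRNPK repeats lay under the CBFB value for 74 of 76 members, against 42.6% of all analysed genes. The median of CBFB minus hnRNPK enrichment was 1.90 over members and -0.10 over all genes. A lower hnRNPK than CBFB value was not particular to the members. Protein-coding genes of at least 20 FPKM and at most 1500 nt had medians of -0.17 with CBFB and -1.87 with hnRNPK. For nuclear-encoded respiratory chain subunits they were -0.18 and -2.27. With both RIPs over the parental input, the medians were 1.23 and -0.10, and both repeats lay under the CBFB value for 73 members and 41.5% of all genes. The 2 RIPs came from different cells with different antibodies and inputs, and the difference was not tested.

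Grouped by subunit and by whether the protein's standard name marks a bacterial homologue or a mitochondria-specific protein, all 4 groups had a median far below that of all genes with hnRNPK. For the edgeR counts, 15.8% of all tested genes were lower and 21.9% higher. Among protein-coding genes of at least 20 FPKM and at most 1500 nt, 59.8% were lower. The 30 large subunit proteins with a bacterial homologue had a median hnRNPK enrichment of -2.20, and 24 were lower and 1 higher by edgeR. The 20 mitochondria-specific large subunit proteins had a median of -1.68, with 14 lower and none higher. The 15 small subunit proteins with a bacterial homologue had a median of -1.85, with 12 lower, and the 10 mitochondria-specific small subunit proteins a median of -1.84, with 8 lower. With FLAG-CBFB the medians of these groups were -0.14, -0.18, -0.10 and -0.20. MRPS36, which is now assigned to a metabolic enzyme complex and not to the ribosome, was left out of the groups; it had 47.0 FPKM against 0.73 and 0.65 with hnRNPK.

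**Figure D4:**
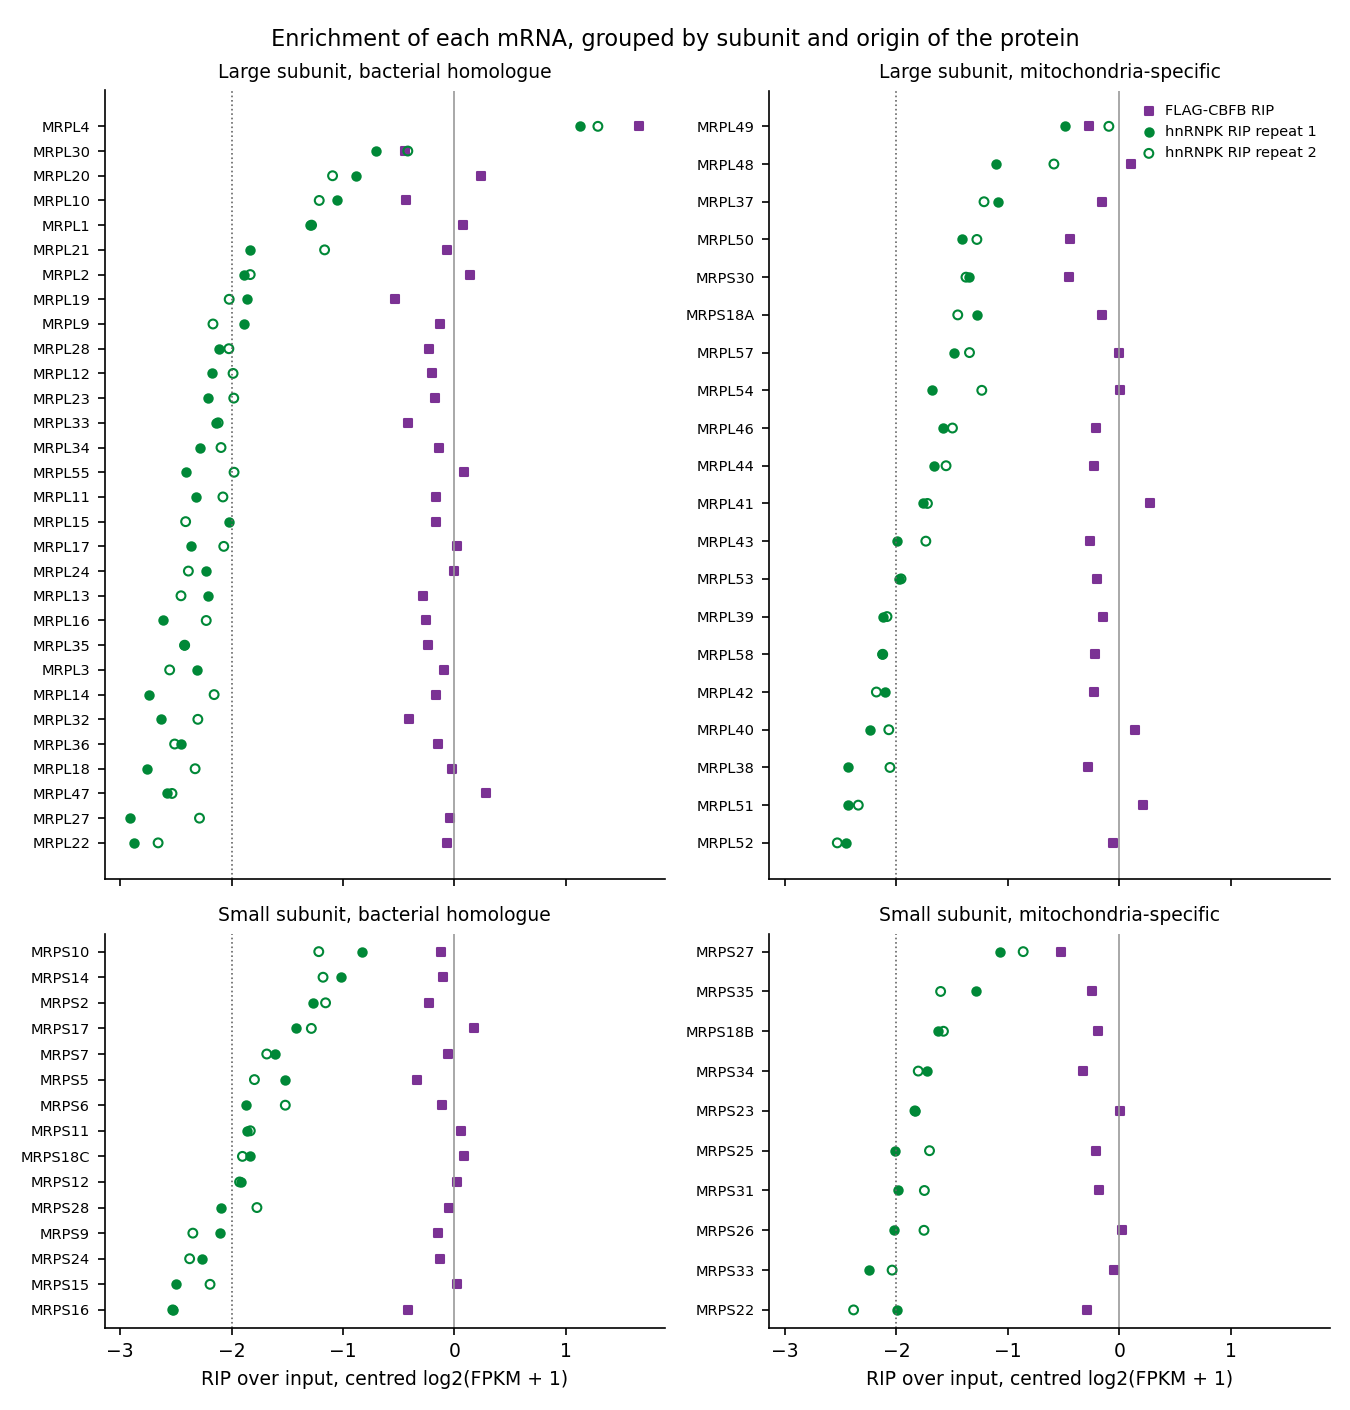
Centred log2 enrichment of each mRNA in the FLAG-CBFB RIP (purple squares) and in hnRNPK RIP repeats 1 (filled green) and 2 (open green), in 4 panels by subunit and origin, with MRPS36 left out. The purple squares stay between -0.54 and 0.28 except for MRPL4, and the green pairs lie to the left of 0 for every gene but MRPL4.

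MRPS18A, MRPS18B and MRPS18C are paralogs related to 1 bacterial protein. In the naming used for the groups only MRPS18C counts as its homologue, and MRPS18A sits in the large subunit. MRPS18A had 35.9 and 12.1 FPKM in the CBFB pair and 45.2, 2.13 and 1.64 in the hnRNPK set. MRPS18B had 52.8 and 17.6 FPKM, then 63.1, 2.39 and 2.35. MRPS18C had 31.2 and 12.5 FPKM, then 70.6, 2.29 and 1.99. Their hnRNPK enrichments were -1.36 ± 0.12, -1.60 ± 0.04 and -1.87 ± 0.05 (SD, n = 2), in that order and further apart than the repeats. The order depends on the input: against the FLAG-CBFB cell input the values were -1.07, -1.38 and -0.75, with MRPS18C highest. The edgeR test called MRPS18B (log2 fold change -1.13) and MRPS18C (-1.12) lower, and MRPS18A (-0.82, adjusted p from edgeR = 0.0650) fell just outside. The counts of the 3 thus differ less than their FPKM.

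MRPL12, which forms the stalk that recruits translation factors, had 91.6 and 30.9 FPKM in the CBFB pair and 166.3, 5.06 and 5.59 in the hnRNPK set. It fell by 1.19 with hnRNPK (SE 0.35, adjusted p from edgeR = 0.00264). MRPS12, part of the decoding centre, had 46.5 and 18.1 FPKM, then 67.5, 1.97 and 1.81. It fell by 1.29 (SE 0.36, adjusted p from edgeR = 0.00145). With hnRNPK both sat near the members' median, and with FLAG-CBFB their enrichments were -0.20 and 0.02.

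The inputs differed for these mRNAs before any immunoprecipitation. The parental input had the higher FPKM for 67 of 76 members, and the members' centred log2 ratio of FLAG-CBFB cell input to parental input had a median of -0.50, against 0.00 over all analysed genes. The ratio ran from -1.18 for MRPL47 to 0.49 for MRPS27. Over members it correlated with hnRNPK enrichment at a Spearman rho of 0.49 and with CBFB enrichment at -0.50, as a description, since each input also enters 1 of the compared ratios. Set against the FLAG-CBFB cell input, the members' median hnRNPK enrichment was -1.41, against -0.17 over all genes. With 1 input library per cell line, line and library cannot be told apart, nor in bulk RNA can fewer expressing cells and less RNA per cell.

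Transcript length and abundance moved with the hnRNPK result. The members had short mRNAs, with a median mean length of 1043 nt in the parental input against 2168 nt over all analysed protein-coding genes, and 85.5% were at most 1500 nt against 26.5%. Over all protein-coding genes, the median hnRNPK enrichment was higher at greater length, from -1.60 at up to 1000 nt and -0.85 at 1000 to 1500 nt to 0.38 above 3000 nt. In the same classes the members had medians of -2.14 (33 genes) and -1.93 (32 genes), and the 6 members of 1500 to 2000 nt had -1.52 against -0.50. Among genes with a mean of at least 20 FPKM, the edgeR test called 43.8% lower, and among protein-coding genes of at least 20 FPKM and at most 1500 nt it called 59.8% lower, beside 77.6% of members. The latter class of 1233 genes had a median hnRNPK enrichment of -1.87, close to the members' -1.94. These are descriptions, and the part of length and abundance in the result was not tested.

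**Figure D5:**
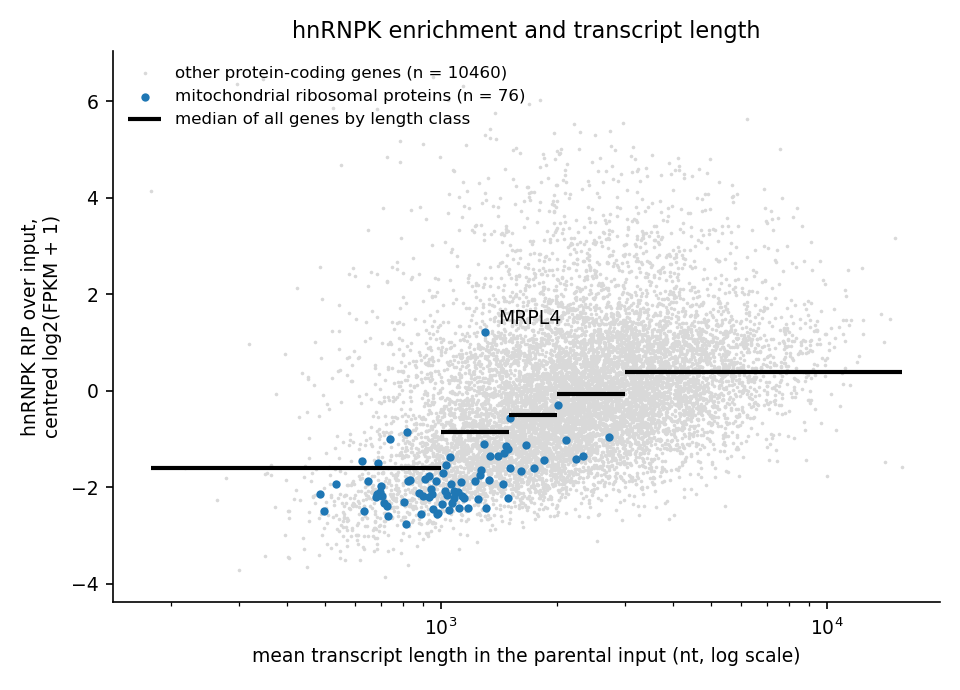
Mean transcript length in the parental input (nt, log scale) against the mean centred hnRNPK enrichment for 10460 other protein-coding genes (grey) and the 76 members (blue), with the median of all genes in each length class as a black bar. Most members lie at the short end and below the bar of their class, and MRPL4 lies above it.

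The members' C content was close to that of all genes. Their transcripts held a median of 24.2% C, against 24.3% over all protein-coding genes, and 3.23 runs of 4 or more C (CCCC on the sense strand) per kilobase, against 3.52. Such a run was present in 88.2% of members and 95.8% of all genes. MRPL4 had 33.1% C and 8.33 runs per kilobase, and MRPL49 had 26.4% and 7.92. MRPL22 had 19.4% and 1.28, and MRPL47 had no such run, but neither did MRPL48 and MRPL20, which lay near the high end with hnRNPK. Over the members, the rho between runs per kilobase and hnRNPK enrichment was 0.08, and 0.24 over all genes, against 0.48 and 0.42 for transcript length. For the number of runs in a transcript, not divided by length, rho was 0.28 over members and 0.42 over all genes. One protein-coding transcript per gene, the closest to the measured mean length, was used, and introns were not searched. The match could be loose, as for MRPL30 with 669 nt against a mean of 1507 nt. Run counts depend on the transcript chosen. Of the 10536 chosen coding parts, 9874 began with ATG.

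The other genes of the same pathway were read from lists of translation and assembly factors. Beside their edgeR counts, 15.8% of all tested genes were lower and 21.9% higher, and 43.8% of genes of at least 20 FPKM were lower. The 5 other mitoribosome proteins (DAP3, PTCD3, CHCHD1, AURKAIP1 and GADD45GIP1) were all lower with hnRNPK by edgeR, with a median enrichment of -1.96, close to that of the members. Among 14 mitochondrial translation factors, 8 were lower and none higher, with a median of -1.08. TUFM, the mitochondrial elongation factor that brings tRNA to the ribosome, had 238.1 FPKM against 8.52 and 7.32. Among 19 mitochondrial aminoacyl-tRNA synthetases, 10 were lower and 2 higher (PARS2 and WARS2), with a median of -1.12. This list includes GARS1 and KARS1, single genes that also supply the cytosolic enzymes.

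Among 24 mitoribosome assembly factors, 14 were lower and 3 higher by edgeR, with a median hnRNPK enrichment of -0.97. The 3 that rose were ERAL1, NSUN4 and YBEY. ERAL1 is an RNA chaperone of the small subunit and had 51.7 FPKM against 12.0 and 17.5 with hnRNPK. With FLAG-CBFB it had 31.9 FPKM in the input and 30.1 in the RIP, an enrichment of 1.26. NSUN4, a methyltransferase of mitochondrial ribosomal RNA, had 11.1 FPKM against 3.80 and 3.51, a log2 fold change of 2.46 (adjusted p from edgeR = 1.44e-08). Over all tested genes, 15.8% were lower and 21.9% higher by edgeR, so 3 higher of 24 was no excess. FLAG-CBFB medians were -0.24 for this list, -0.32 for the translation factors, -0.26 for the synthetases and -0.16 for the other mitoribosome proteins.

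Beside other short housekeeping mRNAs, the members were not the lowest. Over all tested genes, edgeR called 15.8% lower and 21.9% higher, and 59.8% of short, well expressed protein-coding genes lower. The 79 analysed cytosolic ribosomal proteins had a median hnRNPK enrichment of -2.64, with 70 lower and none higher by edgeR, and a FLAG-CBFB median of -0.49. The 79 analysed nuclear-encoded respiratory chain subunits had -2.27, with 68 lower and 1 higher, and -0.18. The 13 mRNAs of the mitochondrial genome, which the mitoribosome translates, went the other way, with medians of 6.02 with hnRNPK and 5.52 with FLAG-CBFB, and all 13 were higher by edgeR. The differences between these lists were not tested.

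Annotation limits touched some members. Exons of 41 members overlap another gene in GENCODE 29, for 29 of them on the other strand. The tables also hold 62 pseudogenes of 32 members, and these took at most 3.13% of the joint counts of a member and its pseudogenes in any library.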

How the data were processed

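Per the labels, RNA from 2 inputs, 1 FLAG-CBFB RIP and 2 hnRNPK RIPs went into TruSeq mRNA libraries. The submitters' processing notes name Trimmomatic, STAR, RSEM and hg19, without versions. The authors deposited expected counts (RSEM's estimated counts, not normalized), FPKM (scaled by transcript length and by all fragments of the library, mitochondrial ones included) and a mean transcript length in nt, another value given per gene. Library totals were 69786576 to 106855647 expected counts.

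Identifiers were matched to symbols with a gene name table and GENCODE 29 (GRCh38). No coordinates are given, because the build differs. Members and lists were chosen with earlier results of these data known. Enrichment was log2(FPKM + 1) of the RIP minus its input, which understates changes of weakly expressed genes, centred on the mean of genes averaging at least 1 FPKM. A call was a centred value above 2 or below -2. The FLAG-CBFB RIP allowed no test. For hnRNPK, expected counts were rounded to whole numbers and tested with edgeR 4.0.16 (quasi-likelihood, TMM, filterByExpr) in R 4.3.3, with DESeq2 1.42.0 as an alternative, after a check on simulated counts. Every list was described by counts and medians without a test. Named members were the 5 highest and 5 lowest in each RIP with at least 50 counts, up to 10 past 4-fold a direction, MRPS18A, MRPS18B, MRPS18C, MRPL12, MRPS12, and any at 0. MRPL45 and MRPS21, and the listed MRM1 and RCC1L, were not matched and not analysed here.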

Additional observations from a re-analysis of the deposited data

Results flagged for a closer look

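For 7 of the named members, the FLAG-CBFB enrichment was above 0 and both hnRNPK repeats were below 0. Members were named partly for a high CBFB value. Over all 76 members, 19 were above 0 with FLAG-CBFB, and 1 of them, MRPL4, was also above 0 with hnRNPK. Of 11764 analysed genes, 4129 were above 0 with FLAG-CBFB and 6256 were below 0 with hnRNPK, and the joint share was not counted. The difference between CBFB and mean hnRNPK enrichment was 2.84 for MRPL47, 2.60 for MRPL51, 2.02 for MRPL41, 1.96 for MRPS18C, 1.95 for MRPS12, 1.23 for MRPL20 and 0.95 for MRPL48. The difference was not tested, and 0 is set by the centring. Set against the parental input instead, the CBFB value of all 7 was below 0, from -1.04 to -0.19. With both RIPs over the same input, the differences were smaller, from 0.21 for MRPL48 to 1.80 for MRPL51, with 1.67 for MRPL47 and 0.87 for MRPL41. The change of the deposited mean transcript length between a RIP and its input is a readout beside the levels. Among members with at least 100 expected counts in both libraries, the length was over 1.5 times longer than in the parental input for 5 of 66 (7.58%) in hnRNPK RIP repeat 1 and for 7 of 64 (10.9%) in repeat 2. Over all analysed genes the shares were 5.81 and 5.66%. Between the inputs it was so for 1 of 76 members, and in the FLAG-CBFB RIP for none. MRPL19 had the largest ratio, with 1448 nt in the parental input and 2962 and 2858 nt in the hnRNPK RIPs, against 1993 nt in the FLAG-CBFB cell input.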

How the results depend on the processing

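The members' median hnRNPK enrichment stayed below the median of all genes in every setting tried, by 4.58 to 0.43, and the CBFB median lay from 1.48 below to 0.26 above it. Medians for CBFB and hnRNPK, in that order, were 0.030 and -1.67 with a pseudocount of 0.1, -1.48 and -4.58 without centring, 0.045 and -1.83 with median centring, 0.26 and -1.07 with scaling before the pseudocount, -1.17 and -3.97 with all genes, -0.063 and -1.48 at a mean of at least 5 FPKM, -0.23 and -1.14 at 20 FPKM (chosen after seeing the data), 0.22 and -1.43 with log2 CPM and TMM factors, 0.26 and -1.28 with DESeq2 size factors, and -0.64 and -1.41 against the other input. Without 1 hnRNPK repeat the hnRNPK median was -1.99 to -1.94. Members under -2 with hnRNPK are given with the share of all genes in brackets. They were 18 at a pseudocount of 0.1 (3.05%), 75 without centring (70.7%) and 75 with all genes (11.2%). There were 8 at 5 FPKM (3.28%), 0 at 20 FPKM (3.52%) and 0 with scaling before the pseudocount (0.714%). With TMM factors there were 7 (2.33%), with DESeq2 size factors 2 (1.57%) and against the other input 6 (4.76%). At a 2-fold threshold, 70 members and 2972 of 11764 genes were called lower. MRPL4 alone was called enriched. It was so with CBFB and with hnRNPK with scaling before the pseudocount, with TMM or DESeq2 size factors and at the 2-fold threshold. At 20 FPKM it was so with hnRNPK only. At the 2-fold threshold, 1091 (CBFB) and 2456 (hnRNPK) of 11764 genes were called enriched. Centring, filters and scaling set where 0 lies, and the pseudocount how far a weak RIP value can fall. The cause of the shift with the other input was not tested. The count of lower members was 48 with DESeq2, where 1361 of 15026 tested genes were lower. With DESeq2's size factors in edgeR it was 54 (2321 of 16639 genes), and with the median gene at 0 it was 53 (2133 of 16639). It was 62 without a filter (3443 of 24642 genes) and 62 with all 5 libraries (3300 of 17882). The count of higher members was 1 in each, where 3282 to 3851 genes were higher. The log2 fold change of MRPS30 turned to -0.21 without a filter and -0.13 with all 5 libraries, and that of MRPL48 to -0.13 and -0.066, none past the threshold. Shares of counts outside the 37 mitochondrial genes were 0.442, 0.403, 0.633, 0.150 and 0.173% in the order FLAG-CBFB cell input, its RIP, parental input and hnRNPK repeats, and shares of all counts without MRPL4 (chosen after seeing the data) were 0.415, 0.142, 0.552, 0.0199 and 0.0196%. Both RIPs over the same input, and the backgrounds of short and well expressed genes, were also chosen after seeing the data. No paired analysis was possible because only the hnRNPK RIP had numbered repeats. Single libraries for CBFB and for both inputs limit every value, and no mock immunoprecipitation set a background.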
